A study of Mus musculus with 6 samples.

Results

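The collagen gene family was examined in primary mouse osteoblasts (PMOs) that differentiated in culture with or without cabozantinib. A gene was taken as a member when its mouse symbol had the form of a collagen chain (Col, a type number, a and a chain number), and its probes were found through the RefSeq accession given for each probe. Of 44 such genes in the RefSeq table, 43 had a probe on the array, among 20659 named genes on the array. The 43 genes had 63 probes. Col12a1 had no probe matched to it, so the FACIT chain of type XII is not analysed here.

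All 6 arrays carried RNA from calvarial osteoblasts of newborn CD1 mice 2 to 5 days old, and no transgene or deletion was named for any group. Undifferentiated osteoblasts (2 arrays) were taken at confluence in growth medium. Differentiated osteoblasts (2 arrays) were kept for a further 30 days in differentiation medium. The medium held ascorbic acid and β-glycerol phosphate. Cabozantinib-treated osteoblasts (2 arrays) had the same 30 days in differentiation medium with cabozantinib, an inhibitor of several receptor tyrosine kinases that include MET and the VEGF receptors, at 100 nM. No source used here said whether the 2 arrays of a group came from separate cultures or animals, so p-values measure the spread between these samples, which may be technical. Undifferentiated cells were also 30 days younger in culture than the other groups, so time in culture and differentiation medium cannot be told apart. The cabozantinib arrays alone had a second scan date, and the scan date and the treatment cannot be told apart. In these bulk samples, fewer cells of a type and less RNA per cell cannot be told apart either.

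Collagens are built of 3 chains wound into a triple helix. Fibrillar collagens (types I, II, III, V, XI, XXIV and XXVII) assemble into the fibrils that carry load, and type I, made of the products of Col1a1 and Col1a2, is the main organic component of bone. FACIT collagens lie on the surface of fibrils, network collagens form sheets, type IV collagen forms the basement membrane lattice, and type VI forms beaded microfilaments around cells. Chains are hydroxylated and glycosylated in the endoplasmic reticulum, trimmed outside the cell and crosslinked by lysyl oxidases, and osteoblasts need ascorbic acid for the hydroxylation.

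Pairs of type IV genes lie head to head on opposite strands, and their values are set side by side below, so their promoters are shown first. The windows below are RefSeq sequences on GRCm38.p6, each 300 bases long, from 250 bases before to 50 bases after an annotated start, read 5′ to 3′ on the gene's own strand. Capitals mark CCAAT and its complement ATTGG. They also mark TATAAA with its complement TTTATA and, as a core that Runx factors bind, ACCACA with its complement TGTGGT.

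The starts of Col4a1 (chr8:11312777-11313076, minus strand) and Col4a2 (chr8:11312555-11312854, plus strand) are 21 bases apart, and the windows share 78 bases. The Col4a2 start (11312805) has a lower coordinate than the Col4a1 start (11312826), so the annotated 5′ ends overlap. Both windows are rich in G and C, at 74.0% and 73.7%.
Col4a1: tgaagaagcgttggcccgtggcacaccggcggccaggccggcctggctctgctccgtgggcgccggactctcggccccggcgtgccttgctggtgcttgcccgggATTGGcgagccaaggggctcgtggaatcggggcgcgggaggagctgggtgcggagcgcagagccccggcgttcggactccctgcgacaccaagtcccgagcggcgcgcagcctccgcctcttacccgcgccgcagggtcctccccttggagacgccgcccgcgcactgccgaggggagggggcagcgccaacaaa
Col4a2: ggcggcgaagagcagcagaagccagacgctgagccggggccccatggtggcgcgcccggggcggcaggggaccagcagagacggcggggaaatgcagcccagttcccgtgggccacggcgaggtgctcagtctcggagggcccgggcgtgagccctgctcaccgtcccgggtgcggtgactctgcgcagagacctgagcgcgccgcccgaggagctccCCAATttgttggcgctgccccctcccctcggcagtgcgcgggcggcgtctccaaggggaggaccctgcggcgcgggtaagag

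The starts of Col4a6 (chrX:141474027-141474326, minus strand) and Col4a5 (chrX:141475169-141475468, plus strand) are 1343 bases apart, and the windows share none. Their G and C contents are 48.3% and 52.7%.
Col4a6: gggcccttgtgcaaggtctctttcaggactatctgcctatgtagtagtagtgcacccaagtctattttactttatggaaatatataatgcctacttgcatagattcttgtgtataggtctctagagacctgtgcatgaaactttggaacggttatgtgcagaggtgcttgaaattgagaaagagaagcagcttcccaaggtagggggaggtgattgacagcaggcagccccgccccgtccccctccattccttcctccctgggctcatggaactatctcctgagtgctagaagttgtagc
Col4a5: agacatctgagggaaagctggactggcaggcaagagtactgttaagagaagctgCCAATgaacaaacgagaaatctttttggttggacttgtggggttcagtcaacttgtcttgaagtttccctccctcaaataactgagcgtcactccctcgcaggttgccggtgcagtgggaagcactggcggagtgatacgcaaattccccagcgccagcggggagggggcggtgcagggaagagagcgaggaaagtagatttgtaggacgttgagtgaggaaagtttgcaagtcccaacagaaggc

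Windows of Col10a1 (chr10:34389731-34390030, plus strand) and Col24a1 (chr3:145292222-145292521, plus strand), genes of the network and fibrillar classes that rose with differentiation, are shown for comparison. Of the 6 printed windows, Col10a1 alone holds TATAAA and none holds ACCACA on either strand.
Col10a1: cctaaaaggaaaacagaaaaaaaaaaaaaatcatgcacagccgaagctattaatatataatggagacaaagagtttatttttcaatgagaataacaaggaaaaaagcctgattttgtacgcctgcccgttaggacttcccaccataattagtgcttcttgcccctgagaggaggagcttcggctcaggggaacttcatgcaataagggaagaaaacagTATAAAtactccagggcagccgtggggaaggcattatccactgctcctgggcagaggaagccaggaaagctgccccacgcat
Col24a1: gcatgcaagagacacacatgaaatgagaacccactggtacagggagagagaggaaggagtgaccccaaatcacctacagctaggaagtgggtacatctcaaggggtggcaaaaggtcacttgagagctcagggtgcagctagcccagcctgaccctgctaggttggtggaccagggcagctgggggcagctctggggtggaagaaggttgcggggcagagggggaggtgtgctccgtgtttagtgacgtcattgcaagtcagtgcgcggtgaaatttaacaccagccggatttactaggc

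The table held 38 windows of 35 collagen genes. On either strand, ACCACA was in 7.89% of them and in 16.8% of all 32851 windows, CCAAT in 34.2% and 37.4%, TATAAA in 13.2% and 13.6%, and GGGCGG, a GC box, in 60.5% and 35.7%. Such matches describe letters and are not binding sites, and a window without a match says only that these letters are not in it.

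Signals are given below on a log2 scale relative to the 75th percentile of the same array, so that 0 is the level of that percentile. Values of one probe are compared between arrays, and levels of different probes are not compared. Of the 43 genes, 38 had a probe well above background on at least 2 arrays and were tested, and 30 of these were well above background on all 6 arrays. The 5 that were not tested were Col13a1, Col6a5 and Col6a6, above background on no array, and Col28a1 and Col4a3, above it on 1 array only. Differences are log2 differences from limma with their standard error (SE), with 2 arrays in each group, and adjusted p-values are Benjamini-Hochberg values over all 27236 probes tested. A gene counts as called when its adjusted p was below 0.05.

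Across the arrays, 58.8% to 72.9% of spots were well above background. Osteoblast markers Alpl, Bglap2, Dmp1, Ibsp, Mepe, Phex and Spp1 were above background on all 6 arrays, while Runx2 was above it on 3 and Sp7 on 4. The summed signal of the 9 osteoblast markers, in multiples of each array's 75th percentile, was 36.1 to 55.7 in undifferentiated, 84.5 to 88.4 in differentiated and 129 to 153 in cabozantinib-treated cells. Not all members followed the sum. Alpl, Bglap2, Dmp1, Ibsp, Mepe and Phex were higher on both differentiated than on both undifferentiated arrays. Spp1 was lower (1.20 and 0.41 against 3.64 and 5.31), as were Runx2 (-7.54 and -6.04 against -4.54 and -5.21) and, on average, Sp7 (-6.82 and -3.90 against -4.40 and -2.63). The probes of Runx2 and Sp7 were above background on 3 and 4 of the 6 arrays. Between differentiated and cabozantinib-treated cells, Ibsp (4.74 and 5.09 against 6.25 and 6.58) and Mepe were higher on both treated arrays. Phex was lower on both (2.95 and 2.58 against 1.52 and 1.62), and the other osteoblast markers overlapped. Markers of other cells moved too. The summed signal of 8 macrophage and osteoclast markers was 22.9 to 44.6, 219 to 333 and 192 to 241 in the same order, that of 7 adipocyte markers 1.50 to 2.01, 23.7 to 49.8 and 8.09 to 8.21, and that of 8 chondrocyte markers 10.2 to 10.6, 10.3 to 14.4 and 8.08 to 8.77. In the chondrocyte sum Comp, at 2.87 to 3.11 in undifferentiated and 2.69 to 3.26 in differentiated cells, outweighed Matn1, Matn3 and Snorc, which were higher on both differentiated arrays. That of 3 tendon markers was 5.63 to 9.27, 3.21 to 3.96 and 6.46 to 8.06, that of 4 glial markers 4.09 to 7.11, 6.14 to 15.0 and 8.21 to 10.7, and that of 8 muscle markers 4.49 to 4.82, 0.989 to 1.30 and 2.57 to 3.20. Epithelial markers (6 genes) summed to 0.867 to 1.86, 0.501 to 0.684 and 0.239 to 0.293, and endothelial markers (8 genes) to 0.240 to 0.327, 0.397 to 0.482 and 0.271 to 0.309. In the adipocyte sum Fabp4 was the brightest marker on every array and outweighed the others. It measured 0.84 and 0.49 in undifferentiated and 4.51 and 5.58 in differentiated cells, and was lower on both cabozantinib than on both differentiated arrays. Adipoq, Cfd and Retn were also higher on both differentiated than on both undifferentiated arrays, while Cidec, Lep and Plin1 overlapped. Retn was above background on 1 array only. Acta1 was the brightest muscle marker on every array (2.09 and 2.04, -0.64 and -0.38, and 1.56 and 1.15). The other muscle markers overlapped between undifferentiated and differentiated cells, as did the epithelial markers apart from Krt18, which was lower. Of the tendon markers, Scx was lower on both differentiated arrays, Tnmd was higher and Mkx overlapped. Lep, Des, Erg, Tek, Tie1, Epcam and Krt8 were above background on no array. The part of these cells in the results below was not tested.

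Differentiation for 30 days raised 9 of the 38 collagen genes and lowered 1 (26.3% called, against 9.71% of all genes tested, of which 5.26% were higher and 4.45% lower). Chains that rose belonged to the FACIT class (Col14a1, Col22a1, Col9a1, Col9a3), the fibrillar class (Col24a1, Col5a3), the network class (Col10a1) and the multiplexins (Col18a1), together with Col26a1, and the chain that fell was Col6a2. The main bone collagens were not among them: the differences of Col1a1 and Col1a2 were 0.24 and 0.26. The median difference of the 38 genes was 0.33, and that of all genes 0.11. The count rested on the arrays used: it was 2 without differentiated replicate 1, 4 without differentiated replicate 2 and 15 without undifferentiated replicate 1, and it was 3 after normexp background correction, while all 10 differences kept their sign in these fits.

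**Figure D1:**
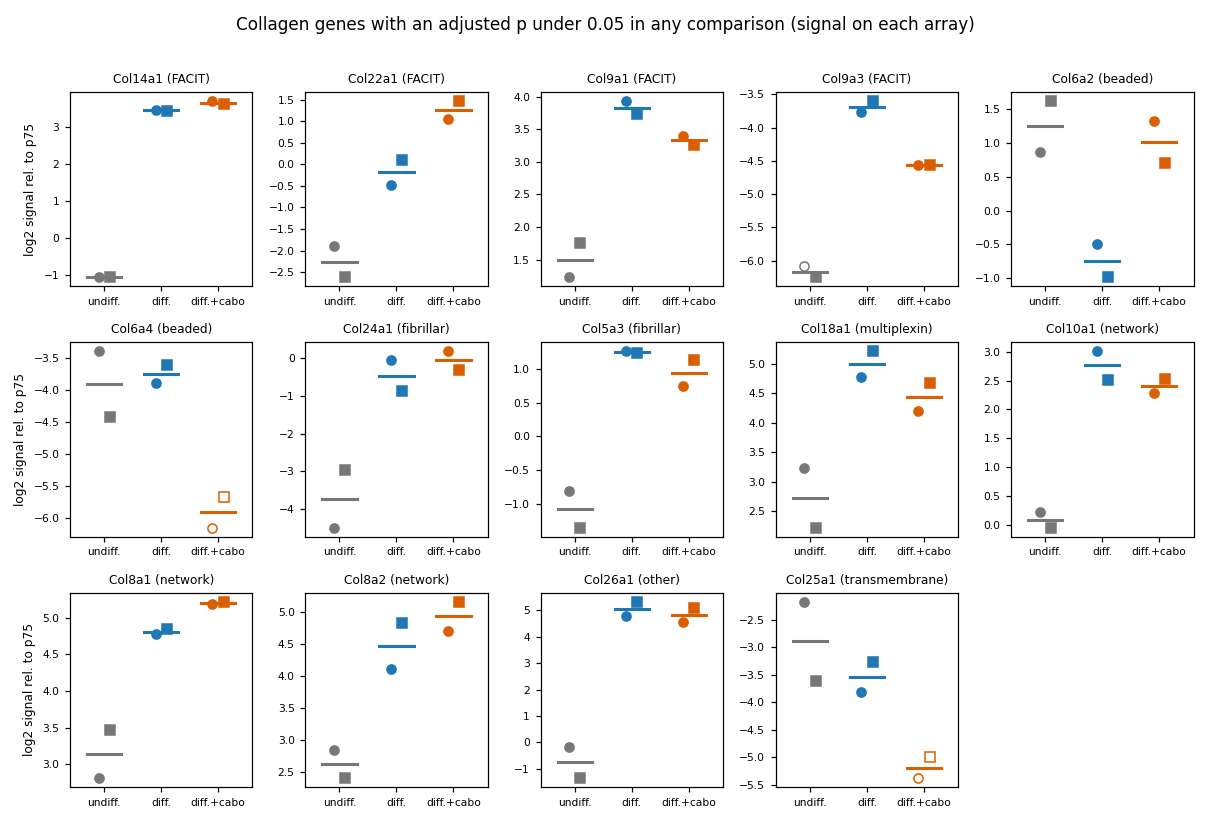
Signal of each of the collagen genes called in any of the 3 comparisons, on each array, as log2 relative to the array's 75th percentile (vertical axis, a scale of its own in each panel); circles are replicate 1, squares replicate 2, bars group means, and open symbols arrays on which the probe was not well above background. Col26a1 and Col14a1 show the widest gaps between undifferentiated and differentiated osteoblasts, at log2 differences of 5.80 and 4.51, and the cabozantinib arrays lie near the differentiated ones for both.

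The FACIT class had a median difference of 1.61, with 4 of 8 tested genes called higher and all 8 above 0. Col14a1, whose product coats fibrils in dense connective tissue, had signals of -1.05 and -1.08 in undifferentiated, 3.45 and 3.43 in differentiated, and 3.69 and 3.61 in cabozantinib-treated osteoblasts. The undifferentiated arrays lay far below the other 4, and the difference with differentiation was 4.51 ± 0.48 (22.7-fold, adjusted p = 0.00068). A second, dimmer Col14a1 probe, above background on 3 arrays, differed by 0.05 (adjusted p = 0.99), so the probes disagree.

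Col22a1, found at tissue junctions, measured -1.90 and -2.62 in undifferentiated, -0.48 and 0.11 in differentiated and 1.04 and 1.47 in cabozantinib-treated cells. The 3 groups did not overlap and stood in that order, with a difference of 2.08 ± 0.53 with differentiation (4.21-fold, adjusted p = 0.036).

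The type IX chains Col9a1, Col9a2 and Col9a3 form one heterotrimer, known from cartilage, that sits on fibrils of type II. Col9a1 measured 1.22 and 1.76 in undifferentiated, 3.93 and 3.73 in differentiated and 3.40 and 3.26 in cabozantinib-treated osteoblasts, with the undifferentiated arrays the lowest and the differentiated ones the highest. It rose by 2.34 ± 0.50 with differentiation (5.07-fold, adjusted p = 0.016). Its second probe, above background on all 6 arrays, differed by 0.21 (adjusted p = 0.94). Col9a3 was dim, at -6.08 and -6.25, -3.77 and -3.60, and -4.56 and -4.56 in the same order, and 1 of the 2 undifferentiated arrays was not above background. The groups of Col9a3 did not overlap, and it rose by 2.48 ± 0.48 (5.59-fold, adjusted p = 0.010). Col9a2 was higher on both differentiated arrays (-1.62 and -1.33) than on the undifferentiated ones (-2.38 and -2.60), but its difference of 1.01 was not called (adjusted p = 0.28). The cabozantinib arrays of Col9a2, at -1.51 and -1.37, fell within the range of the differentiated ones.

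Several cartilage markers were higher on the same arrays as Col9a1, Col9a3 and Col10a1. Matn3 measured -5.82 and -6.94 in undifferentiated, 0.53 and 0.87 in differentiated and -1.46 and -1.23 in cabozantinib-treated cells, Matn1 -6.32 and -5.33, -2.10 and 0.01, and -2.18 and -2.78, and Snorc -3.13 and -4.39, -1.05 and -0.06, and -2.90 and -2.52. Matn3 was above background on 4 and Matn1 on 5 of the 6 arrays. Acan, Cnmd, Comp, Hapln1 and Sox9 overlapped between undifferentiated and differentiated cells. The part of cartilage cells in the values of the collagens was not tested.

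Of the other FACIT genes, Col16a1 measured 4.11 and 3.51, 4.73 and 5.18, and 5.08 and 5.31 in the same order of groups. Its undifferentiated arrays were the lowest, and its difference of 1.14 was not called (adjusted p = 0.24). Col19a1 and Col20a1 differed by 0.07 each and were above background on 2 and 3 arrays.

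Among 11 fibrillar genes tested, the median difference with differentiation was 0.24, and 2 were called higher. Col24a1, a minor fibrillar chain of developing bone, measured -4.49 and -2.96 in undifferentiated, -0.06 and -0.86 in differentiated and 0.18 and -0.30 in cabozantinib-treated osteoblasts. The undifferentiated arrays lay below all others although they differed between themselves, and the difference was 3.27 ± 0.63 (9.62-fold, adjusted p = 0.0099). Col5a3, a chain of the minor fibrillar type V that takes part in setting fibril diameter, measured -0.81 and -1.35, 1.26 and 1.24, and 0.74 and 1.13. Its undifferentiated arrays were the lowest. It rose by 2.33 ± 0.50 (5.02-fold, adjusted p = 0.017), while the other type V chains, Col5a1 and Col5a2, differed by -0.49 (adjusted p = 0.72) and 0.07 (adjusted p = 0.98).

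Col1a1 measured 8.23 and 6.73 in undifferentiated, 7.38 and 8.06 in differentiated and 7.35 and 7.64 in cabozantinib-treated osteoblasts. The undifferentiated arrays spanned the other 4, and the difference of 0.24 ± 0.61 had a 95% interval from -1.12 to 1.61 (adjusted p = 0.94). Col1a2 measured 7.89 and 6.76, 7.24 and 7.94, and 7.72 and 7.92, with overlapping groups and a difference of 0.26 ± 0.57 (adjusted p = 0.92). Col2a1, the main collagen of cartilage, measured 7.50 and 6.31, 6.47 and 7.56, and 6.76 and 7.23, again with overlapping groups, and its difference was 0.11 ± 0.61 (adjusted p = 0.98). Col3a1 and Col11a1 were higher on both differentiated than on both undifferentiated arrays, by 0.64 (adjusted p = 0.57) and 1.003 (adjusted p = 0.29), and neither was called.

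The signals of Col1a1, Col1a2 and Col2a1 moved less between arrays before scaling than the arrays themselves did. The 75th percentile of the arrays ran from 625 to 1773 intensity units, a 2.84-fold range, whereas the signal of Col1a1 ran from 173458 to 207738, a 1.20-fold range. Those of Col1a2, Col6a1 and Col2a1 ranged 1.81-fold, 1.78-fold and 1.49-fold, and those of Col3a1 and Col11a1 3.94-fold and 3.52-fold. Between the 2 undifferentiated arrays, the median log2 difference in signal before scaling was 0.15 for the 100 brightest probes and 1.25 for the probes ranked 3001 to 10000, and the 75th percentile differed by 1.51. Col1a2, Col1a1, Col6a1 and Col2a1 were the 4 collagens among the 300 brightest probes, and no spot was flagged as saturated. The part of this in the scaled values of these genes was not tested.

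**Figure D2:**
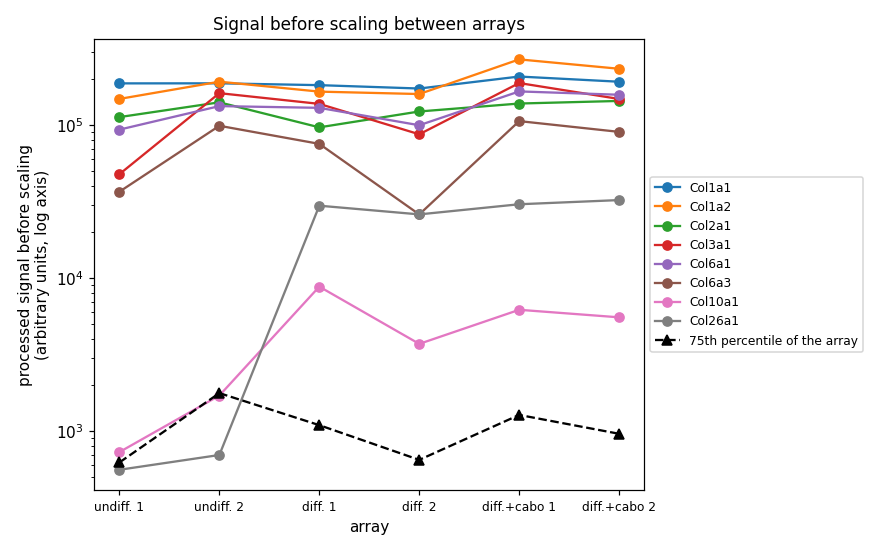
Processed signal of collagen genes before scaling between arrays, in arbitrary intensity units on a log axis, on each of the 6 arrays, with the 75th percentile of each array as a dashed line. Col1a1 stayed between 173458 and 207738 on all arrays while the percentile ran from 625 to 1773, and Col26a1 and Col10a1 were lower on both undifferentiated arrays than on the others.

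All 3 network genes were above 0, with a median difference of 1.84. Col10a1, best known from hypertrophic cartilage, measured 0.23 and -0.05 in undifferentiated, 3.01 and 2.52 in differentiated and 2.28 and 2.53 in cabozantinib-treated osteoblasts. The undifferentiated arrays stood apart below the rest, and Col10a1 rose by 2.68 ± 0.50 (6.39-fold, adjusted p = 0.0082). Col8a1 and Col8a2, chains of the short-chain type VIII, differed by 1.67 (adjusted p = 0.065) and 1.84 (adjusted p = 0.054) with no overlap between the groups, and were not called in this comparison. Without the replicate block both passed, at adjusted p of 0.023 and 0.024.

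Col8a1 measured 2.81 and 3.47, 4.78 and 4.84, and 5.18 and 5.22 in undifferentiated, differentiated and cabozantinib-treated cells. Col8a2 measured 2.84 and 2.40, 4.11 and 4.82, and 4.70 and 5.16. In both genes the undifferentiated arrays were the 2 lowest of the 6. A second Col8a2 probe, also above background on all arrays, differed by 0.49 (adjusted p = 0.85).

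Col26a1, a short collagen with no assigned class, had the largest difference of the 38 genes. It measured -0.16 and -1.34 in undifferentiated, 4.76 and 5.33 in differentiated and 4.57 and 5.07 in cabozantinib-treated osteoblasts. The undifferentiated arrays were far below the other 4, and it rose by 5.80 ± 0.58 (55.6-fold, adjusted p = 0.00049). Col18a1, a multiplexin of basement membranes whose end fragment is endostatin, measured 3.23 and 2.21, 4.77 and 5.22, and 4.21 and 4.68, and rose by 2.28 ± 0.55 (4.84-fold, adjusted p = 0.028). Its second probe rose alike, by 2.25 (adjusted p = 0.043). The other multiplexin, Col15a1, was above background on 2 arrays and differed by 0.29 (adjusted p = 0.95).

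Type VI collagen was the class in which a chain fell. Its main chains are those of Col6a1, Col6a2 and Col6a3, which assemble into one heterotrimer. Col6a2 measured 0.87 and 1.62 in undifferentiated, -0.49 and -0.99 in differentiated and 1.33 and 0.70 in cabozantinib-treated osteoblasts. The 2 differentiated arrays were the lowest of the 6, and it fell by 1.98 on the log2 scale (SE 0.54, adjusted p = 0.046).

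Col6a1 measured 7.23 and 6.23, 6.89 and 7.26, and 7.02 and 7.36, with overlapping groups, and differed by 0.35 (adjusted p = 0.87). Col6a3, at 5.88 and 5.80, 6.11 and 5.33, and 6.38 and 6.55, differed by -0.12 (adjusted p = 0.97). Col6a2 thus moved without a call for its partner chains, although the difference between chains was not tested. Without the replicate block, Col6a2 had an adjusted p of 0.023, and with only the 4 arrays compared it had one of 0.065.

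All 5 basement membrane genes tested were above 0 with differentiation at their brightest probe, by 0.30 to 0.73, and 0 were called. A second Col4a6 probe, above background on all 6 arrays, rose by 1.71 (adjusted p = 0.067, or 0.029 without the replicate block). A second Col4a4 probe went the other way, above background on both undifferentiated arrays alone and at least 2.58-fold lower in differentiated cells (adjusted p = 0.097, or 0.033 without the replicate block). The 3 transmembrane genes were all below 0, at -0.33 to -0.65, and Col7a1, the anchoring fibril chain of skin, was at -0.51 (adjusted p = 0.80), with none called. Over the family, 20 of 38 genes did not overlap between the groups, 17 higher and 3 lower, against 45.2% of all genes (25.9% higher and 19.4% lower).

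**Figure D3:**
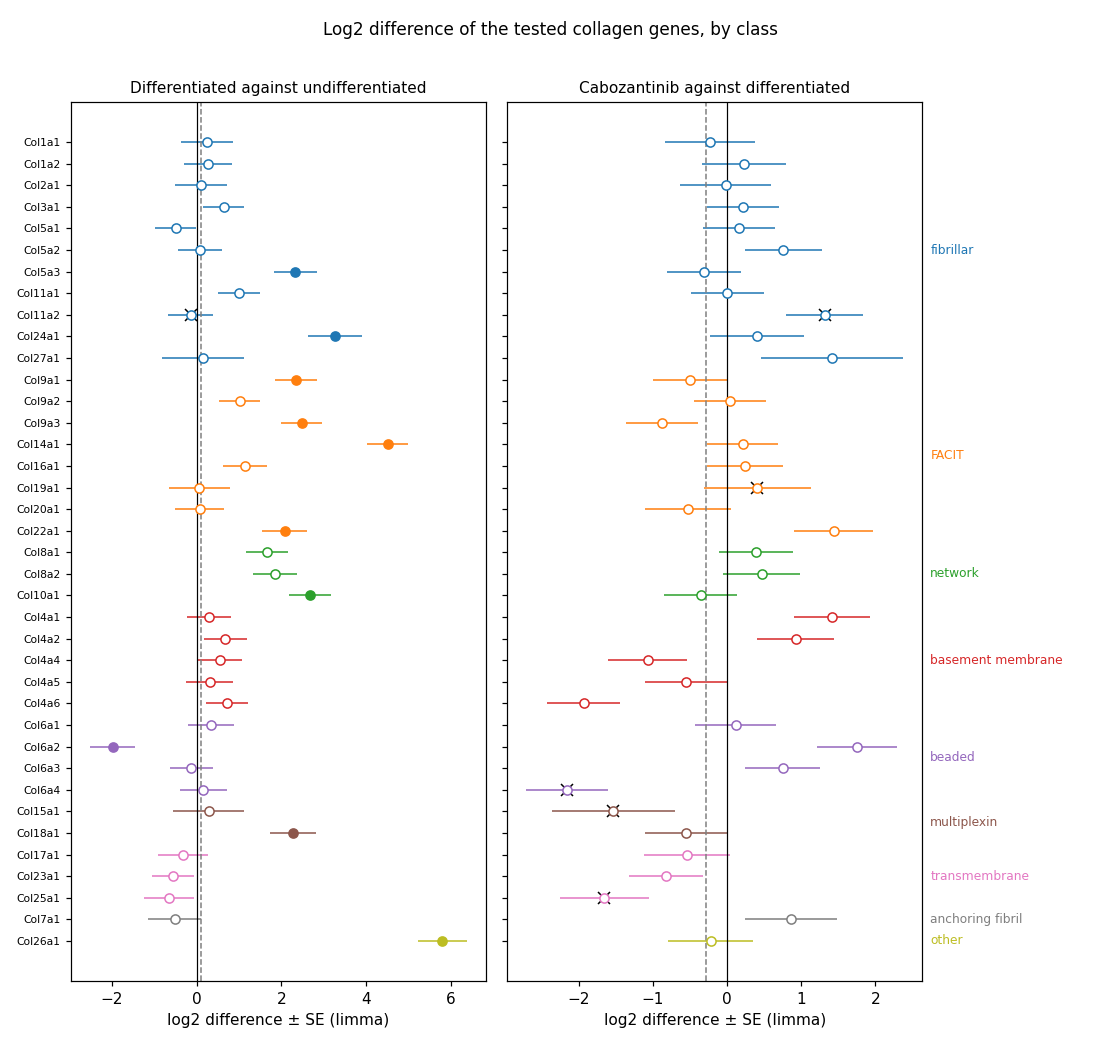
Log2 difference ± SE from limma for the 38 tested collagen genes, grouped by class, for differentiated against undifferentiated (left) and cabozantinib against differentiated osteoblasts (right); filled points had an adjusted p under 0.05, crosses mark genes below background on both arrays of a group, and the dashed line is the median of all genes (0.11 and -0.29). The left panel holds 10 filled points, the right panel none, and type IV chains fall on both sides of 0 in the right panel.

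Cabozantinib treatment during differentiation gave no call among the collagen genes by limma, each read at its brightest tested probe (0 of 38, against 2.67% of all genes, of which 0.121% were higher and 2.55% lower). A second probe of Col25a1 passed on its own and is given below. At an unadjusted p below 0.05, 7 of the 38 passed (23.4% of all genes did), 4 higher (Col11a2, Col22a1, Col4a1, Col6a2; 2.71% of all genes) and 3 lower (Col25a1, Col4a6, Col6a4; 20.7%). The median difference of the 38 genes was 0.08 while that of all genes was -0.29, and with quantile normalisation these were 0.28 and -0.08. The comparison uses the same differentiated arrays as the comparison above, so their values are given side by side and not set against each other.

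The result depended on how the spread was estimated. Without the replicate block 3 genes were called, Col6a2 higher and Col4a6 and Col6a4 lower (12.8% of all genes), and with only the 4 arrays compared 9 were called (24% of all genes). Without either one of the undifferentiated arrays 9 were called, although those arrays are in neither group.

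The 9 genes that rose with differentiation had differences from -0.88 (Col9a3) to 1.44 (Col22a1) under cabozantinib, and none was called. Col14a1 differed by 0.21 (95% interval -0.87 to 1.29, adjusted p = 0.91), Col26a1 by -0.22 (-1.51 to 1.07, adjusted p = 0.92), Col10a1 by -0.36 (-1.47 to 0.75, adjusted p = 0.80) and Col24a1 by 0.40 (-1.01 to 1.81, adjusted p = 0.84). These intervals include 0 and also changes of more than 2-fold, so they do not show that the drug left these genes alike. Col9a1, Col9a3, Col18a1 and Col5a3 were lower on both cabozantinib than on both differentiated arrays, by -0.50, -0.88, -0.55 and -0.31, with adjusted p from 0.33 to 0.84. Of all genes, 44.1% were lower in this way and 13.3% higher, and the median difference of all genes was -0.29. Col22a1 was higher on both cabozantinib arrays, by 1.44 ± 0.53 (2.71-fold, adjusted p = 0.14).

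The fibrillar genes had a median difference of 0.22 under cabozantinib. Col1a1 differed by -0.23 (95% interval -1.59 to 1.14, adjusted p = 0.92), Col1a2 by 0.23 (-1.04 to 1.50, adjusted p = 0.91) and Col2a1 by -0.02 (-1.39 to 1.35, adjusted p = 0.99), with overlapping groups in each. Col3a1 and Col5a2 were higher on both cabozantinib arrays, by 0.22 (adjusted p = 0.90) and 0.76 (adjusted p = 0.46). Col11a2 differed by 1.31 and, being below background on both differentiated arrays, was at least 2.43-fold higher (adjusted p = 0.16).

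Col6a2 was higher on both cabozantinib arrays than on both differentiated arrays, by 1.75 ± 0.54 (3.37-fold, adjusted p = 0.090, or 0.042 without the replicate block). Its treated and undifferentiated arrays overlapped, and the difference between those groups was -0.23 (adjusted p = 0.83). Col6a1 and Col6a3 differed by 0.12 (adjusted p = 0.96) and 0.75 (adjusted p = 0.45).

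Col6a4, a type VI chain that mice have and whose human counterpart is disrupted, measured -3.39 and -4.42 in undifferentiated and -3.89 and -3.61 in differentiated cells, and was not above background on either cabozantinib array (-6.15 and -5.67). It was at least 3.31-fold lower with cabozantinib than without (adjusted p = 0.060, or 0.029 without the replicate block), and at least 2.96-fold lower than in undifferentiated cells (adjusted p = 0.041). These bounds hold for the scaling used, and with quantile normalisation the log2 differences were -1.36 and -1.14.

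The type IV chains went both ways under cabozantinib. Col4a1 and Col4a2, which share the first pair of starts shown above and form the common type IV heterotrimer, were higher on both treated arrays, and Col4a6, of the second pair, was lower on both. None was called.

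Col4a1 measured 1.01 and 1.44 in undifferentiated, 1.85 and 1.20 in differentiated and 3.19 and 2.69 in cabozantinib-treated osteoblasts. Its treated arrays lay above the other 4, with a difference of 1.41 ± 0.52 from differentiated cells (2.66-fold, adjusted p = 0.14). Col4a2 measured 0.00 and -0.02, 1.14 and 0.20, and 1.56 and 1.63, so its treated arrays were also the highest, with a difference of 0.92 ± 0.51 (adjusted p = 0.33). Against undifferentiated cells the differences were 1.71 for Col4a1 (adjusted p = 0.055, or 0.025 without the replicate block) and 1.60 for Col4a2 (adjusted p = 0.065, or 0.030).

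Col4a6 measured 2.98 and 3.12 in undifferentiated, 3.37 and 4.18 in differentiated and 1.71 and 1.97 in cabozantinib-treated osteoblasts. Its treated arrays were the lowest of the 6, with a difference of -1.93 ± 0.49 (adjusted p = 0.060, or 0.029 without the replicate block). A second, dimmer Col4a6 probe disagreed, at -3.47 and -3.77, -2.28 and -1.55, and -2.05 and -1.62, with a difference of 0.08 under cabozantinib (adjusted p = 0.97). Its neighbour Col4a5 measured 0.86 and 1.54, 1.20 and 1.81, and 1.41 and 0.50, with overlapping groups and a difference of -0.55 (adjusted p = 0.68). Col4a4 was lower on both treated arrays, by -1.07 (adjusted p = 0.27).

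**Figure D4:**
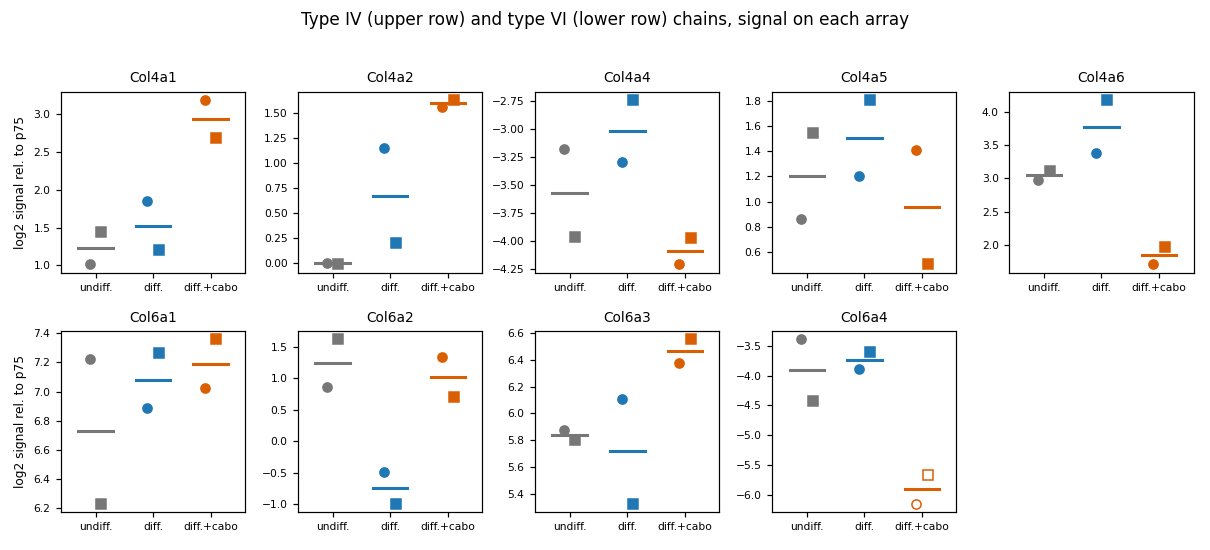
Signal of the type IV chains (upper row) and type VI chains (lower row) on each array, as log2 relative to the array's 75th percentile, with circles for replicate 1, squares for replicate 2, bars for group means and open symbols for arrays not well above background. Col4a1 and Col4a2 are highest and Col4a6 lowest on the cabozantinib arrays, and Col6a2 is lowest on the differentiated arrays.

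The 3 transmembrane collagens were all below 0 under cabozantinib, as were 15658 of all 23086 genes, and 0 were called. Their median was -0.82, against -0.29 for all genes, and with quantile normalisation these were -0.24 and -0.08. Col25a1, a membrane collagen known from neurons, measured -2.16 and -3.61 in undifferentiated and -3.81 and -3.26 in differentiated cells, and was not above background on either cabozantinib array (-5.38 and -5.00). Those readings exceeded the lowest signal well above background on their arrays (-5.52 and -5.43), so no separate lower bound is given. Col25a1 differed by -1.66 from differentiated cells (adjusted p = 0.13) and by -2.31 from undifferentiated cells (adjusted p = 0.035). With quantile normalisation the Col25a1 differences were -0.94 and -1.58. Its second probe, above background on 1 differentiated and no cabozantinib array, was at least 1.60-fold lower under cabozantinib (adjusted p = 0.049). Col17a1, a hemidesmosome collagen of skin, measured -2.41 and -2.82, -3.69 and -2.19, and -3.41 and -3.55, with a difference of -0.54 (adjusted p = 0.71) and overlapping groups. Col7a1, at -0.83 and -2.13, -2.54 and -1.45, and -1.41 and -0.85, differed by 0.86 (adjusted p = 0.50). Over the family, 21 of 38 genes did not overlap between treated and untreated differentiated cells, 11 higher and 10 lower, against 57.5% of all genes (13.3% higher and 44.1% lower).

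Against undifferentiated osteoblasts, cabozantinib-treated osteoblasts had 11 called collagen genes (28.9%, against 13.4% of all genes), 9 higher and 2 lower (4.68% and 8.71% of all genes). The higher ones were Col10a1, Col14a1, Col22a1, Col24a1, Col26a1, Col5a3, Col8a1, Col8a2 and Col9a1, and the lower ones Col25a1 and Col6a4. This comparison shares its undifferentiated arrays with the first. Col26a1 differed by 5.57 (adjusted p = 0.00082), Col14a1 by 4.72 (adjusted p = 0.00079), Col24a1 by 3.67 (adjusted p = 0.0078) and Col22a1 by 3.51 (adjusted p = 0.0045). The second probes of Col14a1 and Col9a1 did not follow: that of Col14a1, below background on both cabozantinib arrays, was at least 1.82-fold lower (adjusted p = 0.096), and that of Col9a1 differed by -0.73 (adjusted p = 0.40). Second probes outside the count also passed for Col4a4, at least 2.47-fold lower (adjusted p = 0.028), for Col25a1, at least 1.17-fold lower (adjusted p = 0.037), and for Col4a6, higher by 1.79 (adjusted p = 0.047), where the main Col4a6 probe was at -1.21. All 3 network genes were called, at 2.06 for Col8a1 (adjusted p = 0.027), 2.31 for Col8a2 (adjusted p = 0.021) and 2.32 for Col10a1 (adjusted p = 0.018), and the second Col8a2 probe differed by -0.29 (adjusted p = 0.83). Col9a3 and Col18a1 differed by 1.60 (adjusted p = 0.055, or 0.016 without the replicate block) and 1.72 (adjusted p = 0.065, or 0.033). The median of the 38 genes was 0.84 against -0.35 for all genes, and 27 genes did not overlap between the groups (20 higher and 7 lower, against 63.3% of all genes, 19.7% higher and 43.6% lower). Without either cabozantinib array 4 genes were called, and without undifferentiated replicate 2, 17 were.

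Genes that make, modify, bind and break down collagen were read from 6 lists holding 58 tested genes. With differentiation, 5 were called higher and 8 lower (22.4%, against 9.71% of all genes). The median difference was 0.02, against 0.33 for the collagens and 0.11 for all genes. Under cabozantinib 0 of the 58 were called by limma (12 at a 2-fold difference and an unadjusted p below 0.05), where 2.67% of all genes were, and against undifferentiated cells 6 were called higher and 2 lower (13.8%, against 13.4% of all genes). In these 3 comparisons the called genes numbered 26, 14 and 16 without undifferentiated replicate 1, and 9, 14 and 19 without undifferentiated replicate 2. They numbered 8, 0 and 8 without differentiated replicate 1, 12, 0 and 3 without cabozantinib replicate 1, and 12, 0 and 1 without cabozantinib replicate 2.

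The lysyl oxidases, which form the crosslinks between chains, were all below 0 with differentiation (5 of 5, median -1.78) and all above 0 under cabozantinib (5 of 5, median 0.65), in comparisons that share the differentiated arrays. Lox measured 5.50 and 5.94 in undifferentiated, 4.29 and 3.12 in differentiated and 4.91 and 4.68 in cabozantinib-treated osteoblasts. Its groups did not overlap, and it fell by 2.02 on the log2 scale with differentiation (adjusted p = 0.046). Loxl1, at 2.82 and 3.24, 0.89 and 0.44, and 2.23 and 1.97, likewise had separate groups and fell by 2.37 (adjusted p = 0.016). Under cabozantinib Lox and Loxl1 differed by 1.09 (adjusted p = 0.27) and 1.43 (adjusted p = 0.12).

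Among 18 genes of chain folding and modification, Colgalt2, a galactosyltransferase of hydroxylysine, rose by 4.48 ± 0.60 with differentiation (22.3-fold, adjusted p = 0.0019). It measured -4.53 and -5.42 in undifferentiated, -1.13 and 0.14 in differentiated and -2.96 and -2.48 in cabozantinib-treated cells, with 1 undifferentiated array not above background. Its groups did not overlap, and it was lower under cabozantinib by -2.22 (adjusted p = 0.066). Plod3, a lysyl hydroxylase that also glycosylates, measured 2.23 and 1.75, -1.02 and -0.79, and -0.31 and -0.21, and fell by 2.89 with differentiation (adjusted p = 0.0057). P4hb, the shared subunit of prolyl hydroxylases, measured 3.13 and 4.01, 1.88 and 0.83, and 2.38 and 1.66, and fell by 2.22 (adjusted p = 0.040). The undifferentiated arrays were the highest in both genes.

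Among fibril-associated proteins, the small leucine-rich proteoglycans went both ways. Omd rose by 4.39 ± 0.48 (adjusted p = 0.00078), Kera by 4.36 ± 0.52 (adjusted p = 0.0011) and Ogn by 2.24 ± 0.48 (adjusted p = 0.017), and Fmod fell by 2.81 (adjusted p = 0.026). Omd measured 0.83 and 1.07, 5.18 and 5.50, and 4.22 and 4.46 in the 3 groups. Kera measured -5.54 and -5.84, -0.71 and -1.94, and -3.34 and -3.49, and 1 undifferentiated array was not above background. In both genes the treated arrays lay between the other groups, and the differences under cabozantinib were -0.998 (adjusted p = 0.25) and -2.09 (adjusted p = 0.056). Ogn measured 4.81 and 4.77, 6.97 and 7.09, and 6.85 and 7.05, and Fmod -0.10 and 1.12, -2.56 and -2.04, and -0.59 and -2.15. The undifferentiated arrays of Ogn were the lowest and those of Fmod the highest. Postn, a matricellular protein of bone surfaces, was called against undifferentiated cells only in the treated group (1.71, adjusted p = 0.046), with 1.46 (adjusted p = 0.096) in differentiated cells, and the difference between treated and differentiated cells was 0.24 (adjusted p = 0.89).

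The remaining lists held 1 or 2 called genes each with differentiation. Pcolce2, an enhancer of propeptide removal, measured 0.984 and 0.998, -1.76 and -1.41, and -0.59 and -0.43, and fell by 2.57 with differentiation (adjusted p = 0.0088). Itga2, a collagen-binding integrin chain, was not above background on either undifferentiated array and was at least 3.40-fold higher in differentiated cells (adjusted p = 0.0075). Of the collagenases and gelatinases, Mmp2 measured 2.21 and 3.21, 0.23 and -0.61, and 2.33 and 1.50, and fell by 2.90 (adjusted p = 0.013). Mmp8, at -0.81 and -1.02, -3.94 and -3.77, and -2.63 and -2.62, fell by 2.94 (adjusted p = 0.0047). For both, the differentiated arrays were the lowest, and the treated arrays were higher by 2.11 (adjusted p = 0.073) and 1.23 (adjusted p = 0.16).

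The genes with the highest signal in the other 5 lists were not called. Serpinh1, the collagen chaperone, measured 7.16 and 6.27, 6.95 and 7.40, and 6.81 and 7.09, and differed by 0.46 with differentiation (adjusted p = 0.79) and -0.22 under cabozantinib (adjusted p = 0.91). Pcolce, the main enhancer of propeptide removal, differed by 0.50 (adjusted p = 0.81) and -0.09 (adjusted p = 0.97), and Sparc, a collagen-binding protein of bone, by 0.20 (adjusted p = 0.95) and -0.11 (adjusted p = 0.97). The groups overlapped in all 3 genes. Itga11, a receptor chain for type I collagen, differed by 0.03 (adjusted p = 0.99) and 0.09 (adjusted p = 0.97). Ctsk, the collagen-degrading cathepsin of osteoclasts, measured 5.62 and 4.96, 6.50 and 7.06, and 6.45 and 6.76. Its undifferentiated arrays were the lowest, with a difference of 1.49 that was not called (adjusted p = 0.12), and it differed by -0.17 under cabozantinib (adjusted p = 0.94).

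**Figure D5:**
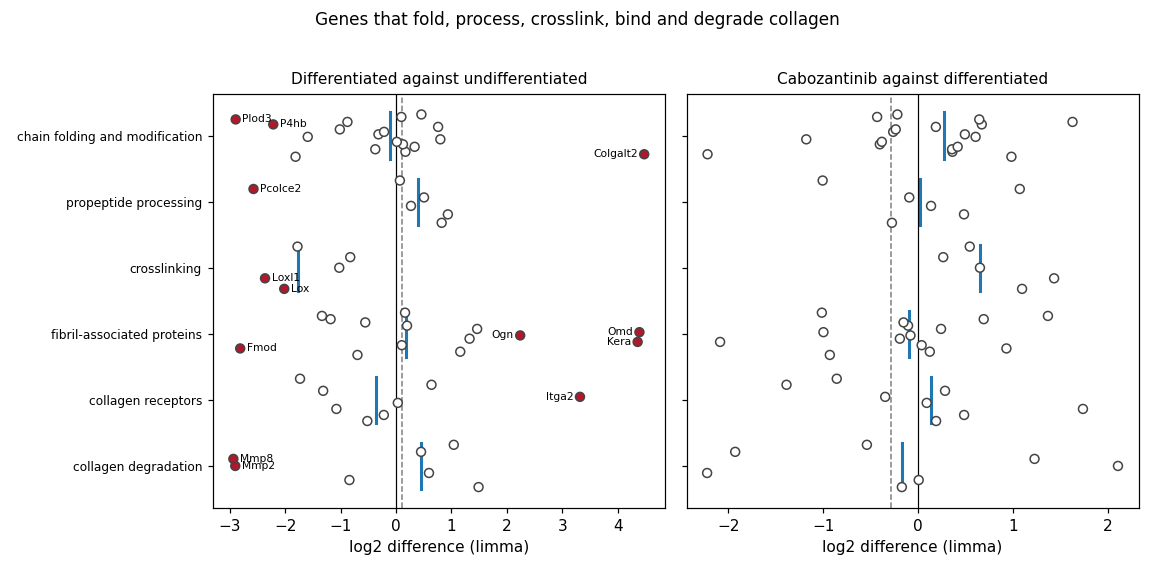
Log2 difference from limma of the 58 tested genes of collagen folding, processing, crosslinking, binding and breakdown, one row for each list, for differentiated against undifferentiated (left) and cabozantinib against differentiated osteoblasts (right); filled and named points had an adjusted p under 0.05, vertical bars are list medians, and dashed lines the medians of all genes. The 5 lysyl oxidases lie below 0 on the left and above 0 on the right, and the right panel holds no filled point.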

How the data were processed

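Total RNA in 6 samples (2 arrays in each of 3 groups) was hybridised to 1-colour Agilent whole mouse genome arrays annotated on mm9. The deposited scanner files hold, per the file headers, intensity values in which Feature Extraction 11.0.1.1 had subtracted background and corrected spatial trends. A deposited table holds the authors' log2 values, with column medians from 7.504 to 7.506 and an unstated normalisation. Each of its columns correlated best with the scanner signal of its own array (r from 0.9983 to 0.9998), and it served as an alternative. Control and outlier spots were left out, spots of a probe were averaged, and log2 of the processed signal minus its 75th percentile on each array was used. Probes well above background on at least 2 arrays (27236 of 39429) were fitted with limma 3.58.1 in R 4.3.3, with the replicate number as a block because the study's methods name a paired test. Residual degrees of freedom were 2, to which moderation added 7.69. Each gene was read at its brightest tested probe. The scanner files give no gene names, so 27234 probes (69.1%) were named through RefSeq accessions. Where a group was below background on both arrays, a fold is a lower bound, rounded down. It is taken against the array's lowest signal well above background, or against the probe's own signal where that was higher. The adjusted p given with a bound is that of the limma difference between the signals as read, not of the bound. Such a bound holds for this scaling only, and another normalisation can give a smaller fold. The number of arrays limits the precision.

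The members and lists were chosen with earlier results of these data known. Of the collagen genes, those called in any comparison, the brightest gene of each class, Col1a1, Col1a2, Col2a1 and Col10a1 are given with every array, with the chains that share their trimers or starts (Col9a2, Col4a1, Col4a2, Col4a5, Col6a3), which were added after their values were seen, and other genes by range and count. Of the collagen pathway lists, called genes (at most 5 a list) and the brightest gene are named. Samples with the same replicate number deviated together by r = -0.51 (undifferentiated and differentiated), -0.53 (undifferentiated and cabozantinib) and 0.26 (differentiated and cabozantinib), so the numbers are not shown to pair the samples. The script for the fit was tested on simulated data. Alternatives were other background corrections, normalisations, filters, tests and left-out arrays. Figures were drawn with matplotlib 3.10.9.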

Additional observations from a re-analysis of the deposited data

How the results depend on the processing

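The precision is limited by 2 arrays in each group, by dim probes near background and by the brightest probes, whose signals differed less between arrays than the 75th percentile did. Counts are given for collagen genes and then for genes of the collagen pathway lists (10 and 13 for differentiated against undifferentiated, 0 and 0 for cabozantinib against differentiated, and 11 and 8 for cabozantinib against undifferentiated). All 10 collagen genes called with differentiation, read at their brightest probe or the mean of their probes, kept the sign of their difference under every alternative run. Where a count differed, the cause was not tested unless fewer arrays or genes entered the fit. A fit with the scan date as a term was not run for cabozantinib, since no other group had its scan date.

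With a 2-fold difference and an unadjusted p as the rule, pathway genes numbered 22 with differentiation, collagen and pathway genes 7 and 12 with cabozantinib against differentiated cells, and 19 and 19 against undifferentiated cells. With normexp background correction the counts were 3 and 4 with differentiation and 3 and 1 for cabozantinib against undifferentiated cells, whose collagen median was 0.56. With the authors' deposited values they were 5 and 7, and 6 and 3. With quantile normalisation collagen genes numbered 7 for cabozantinib against undifferentiated cells, and the collagen median for cabozantinib against differentiated cells was 0.28, also with the deposited values. With no filter on dim probes collagen genes numbered 6 with differentiation, and collagen and pathway genes 4 and 2 for cabozantinib against undifferentiated cells. With probes above background on all arrays pathway genes numbered 5 there.

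Without the replicate block, collagen and pathway genes called numbered 3 and 7 for cabozantinib against differentiated and 17 and 13 for cabozantinib against undifferentiated cells, and 12 and 15 with differentiation. With only the arrays compared, the replicate block left 9 and 14 for cabozantinib against differentiated cells. With the undifferentiated replicate numbers exchanged in the block, an alternative chosen after seeing the data, the counts were 15 and 25, 11 and 18, and 25 and 31. With trend and robust moderation 1 and 1 were called for cabozantinib against differentiated cells, and after averaging all probes of a gene 2 pathway genes were.

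With the methods' t-test, paired, 0 genes of either kind passed Benjamini-Hochberg adjustment in any comparison, and the same was true unpaired. At the 2-fold threshold without adjustment the methods' t-test, paired, gave 3 and 5 genes, 6 and 5, and 4 collagen genes, and the unpaired form gave 4 and 6 for cabozantinib against differentiated cells and 17 collagen genes against undifferentiated cells.

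Leaving out each array in turn gave 2 to 15 collagen and 8 to 26 pathway genes with differentiation, 0 to 9 and 0 to 14 for cabozantinib against differentiated cells, and 4 to 17 and 1 to 19 for cabozantinib against undifferentiated cells. The collagen medians ran from 0.33 to 1.04, from -0.176 to 0.230 and from 0.72 to 1.17. Among the named collagen genes, 36 values changed sign, 130 lost a call or 42 gained one, and 701 did neither. Across left-out arrays, differences with differentiation ran from -0.75 to 1.24 for Col1a1, -0.53 to 1.06 for Col1a2, -0.87 to 1.09 for Col2a1, -0.55 to 0.87 for Col6a4 and -1.60 to 0.31 for Col25a1. Those for cabozantinib against differentiated cells ran from -0.87 to 0.41 for Col1a1, -0.35 to 0.81 for Col1a2, -0.75 to 0.71 for Col2a1, -0.26 to 1.07 for Col24a1, -0.68 to 0.23 for Col26a1 and -0.65 to 0.022 for Col5a3. Those for cabozantinib against undifferentiated cells ran from -0.98 to 1.01 for Col1a1, -0.30 to 1.29 for Col1a2, -0.90 to 1.07 for Col2a1 and -0.89 to 0.43 for Col6a2. In other sign changes Col6a4 was at -0.10 with differentiation and Col2a1 at 0.25 for cabozantinib against differentiated cells with normexp, Col2a1 was at -0.022 and 0.14 in these comparisons and Col1a1 at -0.016 for cabozantinib against undifferentiated cells with both quantile normalisation and the deposited values, and after averaging all probes of a gene Col14a1 and Col8a2 were at -0.64 and -0.15 for cabozantinib against differentiated cells.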
